A study of Mus musculus with 26 samples.

Results

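The genes described here encode collagen and laminin chains, the main structural proteins of the extracellular matrix. They were taken by symbol: Col, a number, a and a number for collagens, and Lama, Lamb or Lamc with a number for laminins. Each gene was read from probe sets listed with exactly 1 symbol, the brightest one where a gene had several. The rule found 54 of the 22180 genes with a value, 44 collagens and 10 laminins, and 48 of them passed the filter on dim genes. By class, 11 were fibrillar collagens and all of these passed. The 16 basement membrane genes, 6 type IV collagen genes and 10 laminin genes, passed too. Of the 27 other collagens 21 passed, and Col10a1, Col14a1, Col19a1, Col28a1, Col8a2 and Col9a1 were too dim to be tested.

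Fibrillar collagens such as type I and type III assemble into the tension-bearing fibres of connective tissue and are made in bulk by fibroblasts. Basement membranes are thin sheets under epithelia in which laminins, each a trimer of an alpha, a beta and a gamma chain, form a first network and type IV collagen a second one that nidogens and perlecan tie to it. The early embryo deposits laminins before other basement membrane components, and embryonic stem cells bind laminin through integrins. The embryonic fibroblasts on which such cells are grown secrete matrix of their own.

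RNA came from mouse J1 embryonic stem cells, an established line, after knockdown of Mettl3 or Mettl14, whose products form the enzyme that writes N6-methyladenosine on messenger RNA. The study asks how this mark bears on the stability of developmental transcripts. All groups shared the line, medium with serum and leukaemia inhibitory factor, and irradiated mouse embryonic fibroblasts as feeders. The labels name no step that separates feeder RNA from stem cell RNA, and RNA was enriched for poly(A) transcripts. The labels speak both of lentiviral shRNA with puromycin selection and of repeated siRNA transfection without saying which arrays had which, and they leave unstated what the 4 h and 8 h incubations contained. The 26 arrays form 13 groups of 2. The first 18 arrays are a time course in which scramble control, Mettl14 knockdown and Mettl3 knockdown were each sampled at 0 h, 4 h and 8 h. The remaining 8, all labelled 0 h, repeat each knockdown beside a scramble control of its own and are called the repeat set. The second scramble array of either control in the repeat set is labelled 0 h in its title, source and time field and 4 h in its description. It was kept as 0 h. Titles call the arrays biological replicates, nothing places them in separate cultures, and p-values measure only the spread between these samples. The labels do not tell whether a knockdown line was 1 clone.

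Promoter sequences are shown for 3 basement membrane genes that rose in all 4 knockdown comparisons at 0 h: Col4a1 and Col4a2, which lie head to head and whose windows share DNA, and Lamb1, the beta chain gene of the embryonic laminin trimer. The windows run from 250 bases before to 50 bases after the annotated transcript start, 5′ to 3′, and come from RefSeq on GRCm38.p6. Col4a1 lies at chr8:11312777-11313076 on the minus strand, Col4a2 at chr8:11312555-11312854 on the plus strand and Lamb1 at chr12:31265043-31265342 on the plus strand. In the Col4a1 and Col4a2 lines, capitals mark the 78 bases that both windows hold, read from opposite strands. In the Lamb1 line, capitals mark the matches to the GC box, GGGCGG or its reverse complement.
Col4a1: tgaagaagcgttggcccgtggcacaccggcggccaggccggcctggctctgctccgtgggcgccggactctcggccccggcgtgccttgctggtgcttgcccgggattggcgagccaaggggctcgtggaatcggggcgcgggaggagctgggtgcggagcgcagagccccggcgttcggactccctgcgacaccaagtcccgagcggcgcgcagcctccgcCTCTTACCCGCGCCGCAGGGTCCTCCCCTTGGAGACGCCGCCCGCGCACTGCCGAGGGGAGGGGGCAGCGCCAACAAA
Col4a2: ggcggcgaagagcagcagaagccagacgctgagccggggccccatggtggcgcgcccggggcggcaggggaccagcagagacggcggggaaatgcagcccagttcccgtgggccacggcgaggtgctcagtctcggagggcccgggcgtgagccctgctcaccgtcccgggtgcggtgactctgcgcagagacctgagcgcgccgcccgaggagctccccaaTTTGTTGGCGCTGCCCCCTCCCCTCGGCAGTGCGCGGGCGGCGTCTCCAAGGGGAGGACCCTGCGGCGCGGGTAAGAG
Lamb1: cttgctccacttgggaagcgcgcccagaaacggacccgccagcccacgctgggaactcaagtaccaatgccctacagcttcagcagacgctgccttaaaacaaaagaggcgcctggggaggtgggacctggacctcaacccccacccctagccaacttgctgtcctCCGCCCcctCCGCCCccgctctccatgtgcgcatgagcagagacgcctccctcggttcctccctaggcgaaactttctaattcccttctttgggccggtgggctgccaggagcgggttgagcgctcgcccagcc
The annotated Col4a1 and Col4a2 transcripts overlap at their starts by 22 bases. Searched on both strands, GGGCGG occurred 1 time in the Col4a1 window, 3 times in the Col4a2 window and 2 times in the Lamb1 window, against at least 1 match in 35.7% of all 32851 windows. The Col4a1 match lies in the 78 shared bases and is the same site as 1 of the 3 Col4a2 matches. CCAAT occurred 1 time in each of the 3 windows and in 37.4% of all windows. TGANTCA (AP-1; 7.81% of all windows), TATAAA (13.6%) and GGAATG (TEAD; 14.7%) did not occur in any of the 3. These are matches of letters and not tested sites. RefSeq windows were matched for 40 of the 54 genes, 44 windows in all. Of these 44, 59.1% held GGGCGG, 31.8% CCAAT, 2.27% TGANTCA, 11.4% TATAAA and 13.6% GGAATG.

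The deposited log2 signals lay between 0.754 and 14.32, and the correlation of replicates over probe sets was 0.987 to 0.993. An array's median was 6.48 to 6.50 at 0 h of the time course, 6.28 to 6.39 at its later times, and 6.29 to 6.32 in the repeat set. The targeted transcripts were low where the labels say: Mettl14 stood at 30.9% of its control in the time course at 0 h and 39% in the repeat set. Mettl3 shares its probe set with Tox4, and that probe set stood at 26.9% and 23.6% of control in the Mettl3 knockdowns. Pou5f1, the defining transcription factor of pluripotent cells, fell in the 4 knockdown comparisons at 0 h (log2 change -0.74, -0.60, -0.46 and -0.31). Of 8 pluripotency markers, 7, 8, 7 and 7 fell, and 1 rose with Mettl14 in the repeat set. Over all genes tested 20.1%, 18.6%, 16.9% and 17.4% fell. With 2 arrays a group, the number of arrays limits the precision. The median standard deviation between replicates was 0.08 over the collagen and laminin genes and groups, and the largest gap between replicates of a group was 0.64. In bulk RNA, fewer cells of a type and less RNA per cell cannot be told apart.

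At 0 h a part of the collagen and laminin genes of each class rose in the knockdowns, and Lama1 fell. In the time course the Mettl14 knockdown called 17 of the 48 tested genes at an adjusted p under 0.05, 16 higher and 1 lower. That is 35.4%, against 39.5% of all 14787 genes tested, of which 19.4% were higher and 20.1% lower. The Mettl3 knockdown called 16, 14 higher and 2 lower, which is 33.3% against 37.8% of all genes (19.3% higher and 18.6% lower). In the repeat set the Mettl14 knockdown called 11, 9 higher and 2 lower, which is 22.9% against 36.2% (19.4% higher and 16.9% lower). The Mettl3 knockdown there called 16, 13 higher and 3 lower, 33.3% against 35.3% (17.9% higher and 17.4% lower). The share called was near or below the background in each comparison. The called genes were mostly higher, while calls over all genes were split about evenly. The median log2 change over the 48 was 0.18, 0.20, 0.02 and 0.13 in these comparisons, and over all genes -0.00, 0.00, -0.00 and 0.00. Both knockdowns of the time course were set against the same scramble arrays, so their values are given side by side. With arrays scaled to an equal median of a list of long-lived transcripts, the higher share of all calls went from 49.1% to 34.5% with Mettl14 in the time course, where 13 of the 48 were then higher and 4 lower, and from 53.5% to 69.2% with Mettl14 in the repeat set, with 10 higher and 2 lower.

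The classes differed in how many were called. Of the 16 basement membrane genes 9, 10, 7 and 8 were called in the order above, and of these 8, 8, 6 and 7 were higher. Their share called was 56.2%, 62.5%, 43.8% and 50%, above the 39.5%, 37.8%, 36.2% and 35.3% of all genes. Among the 10 laminin genes alone 7, 8, 5 and 6 were called. Of the 11 fibrillar collagens 4, 4, 1 and 2 were called, all higher. These shares of 36.4%, 36.4%, 9.09% and 18.2% were below that of all genes in each comparison. Of the 21 other collagens tested 4, 2, 3 and 6 were called, with 1 lower in the Mettl14 and 2 lower in the Mettl3 knockdown of the repeat set. The share called in this class ran from 9.52% to 28.6% and was also below that of all genes in each comparison. The difference between classes itself was not tested. Leaving out 1 array at a time, 12 of 17, 14 of 16, 9 of 11 and 9 of 16 calls held throughout, and the count for the Mettl3 knockdown of the repeat set was 10 without its replicate 1.

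**Figure D1:**
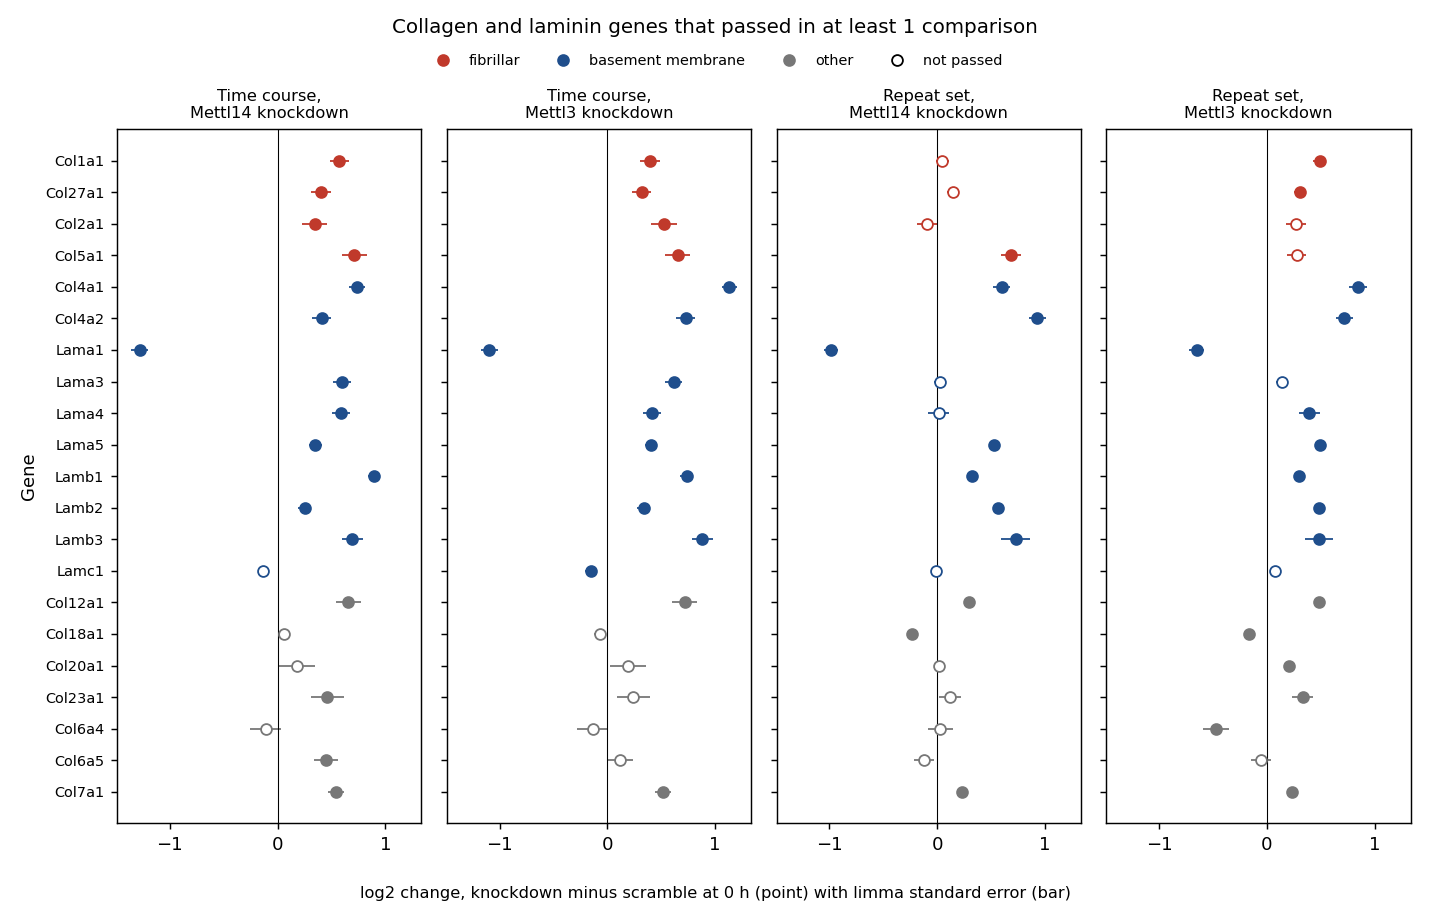
The plot gives the log2 change of each gene called in at least 1 of the 4 knockdown comparisons at 0 h (x axis, knockdown minus scramble, point with limma standard error), with filled points for an adjusted p under 0.05 and colours for the 3 classes. Lama1 lies left of 0 in all 4 panels (from -1.28 to -0.65), while Col4a1, Col4a2, Lama5, Lamb1, Lamb2, Lamb3, Col12a1 and Col7a1 lie right of 0 and are filled in all of them.

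Lama1, the alpha chain of the laminin trimer of the early embryo, fell in each knockdown. At 0 h of the time course its log2 signal was 9.60 and 9.57 in scramble, 8.42 and 8.19 after Mettl14 knockdown and 8.41 and 8.57 after Mettl3 knockdown. Every knockdown array was below both scramble arrays by more than the replicates differed. The change was -1.28 ± 0.08 (adjusted p = 1.32e-07), to 41.2% of scramble, and -1.10 ± 0.08 (adjusted p = 5.63e-07), to 46.8%. In the repeat set Lama1 read 8.95 and 8.95 in the Mettl14 scramble and 7.87 and 8.05 in the knockdown, and 9.01 and 9.01 against 8.32 and 8.40 for Mettl3. Here too the groups did not overlap, and the changes were -0.99 ± 0.07 (adjusted p = 9.39e-05) and -0.65 ± 0.07 (adjusted p = 0.000523). The scramble arrays of the repeat set were themselves below those of the time course.

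The other embryonic alpha chain moved the opposite way. Lama5, the alpha chain of the laminins that support stem cell attachment and later epithelia, read 10.11 and 10.14 in scramble at 0 h, 10.48 and 10.48 after Mettl14 knockdown and 10.57 and 10.50 after Mettl3 knockdown. The repeat set gave 9.80 and 9.77 against 10.34 and 10.28 for Mettl14, and 9.74 and 9.75 against 10.25 and 10.22 for Mettl3. All 8 knockdown arrays lay above their controls. The rises were 0.35 ± 0.06, 0.41 ± 0.06, 0.53 ± 0.04 and 0.49 ± 0.04 (adjusted p = 0.000353, 0.000127, 0.000188 and 0.000286). Lama3, an epithelial alpha chain, rose by 0.60 ± 0.08 and 0.61 ± 0.08 in the time course (adjusted p = 0.000106 and 9.12e-05) and did not pass in the repeat set, where it differed by 0.03 ± 0.06 and 0.14 ± 0.06. Lama4, the alpha chain of vessel walls and mesenchyme, rose by 0.59 and 0.42 in the time course and by 0.39 in the Mettl3 knockdown of the repeat set. In the Mettl14 knockdown of that set it differed by 0.01 (adjusted p = 0.928). The Lama4 call in the repeat set ended without replicate 1 of its scramble (adjusted p = 0.0935) or replicate 1 of the knockdown (0.083), with no filter (0.0507), with both scramble controls as 1 group (0.0829) and without the arrays described as 4 h (0.0526). Lama2, the muscle alpha chain, was not called at 0 h.

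All 3 beta chain genes rose in the 4 comparisons. Lamb1, the beta chain of the embryonic trimer, read 9.001 and 9.07 in scramble at 0 h of the time course, 9.89 and 9.97 in the Mettl14 knockdown and 9.82 and 9.72 in the Mettl3 knockdown. Its repeat-set arrays read 9.07 and 9.04 against 9.37 and 9.39 for Mettl14, and 8.93 and 8.93 against 9.21 and 9.24 for Mettl3. No knockdown array overlapped its control. The rise was 0.90 ± 0.06 (adjusted p = 1.49e-07) and 0.73 ± 0.06 (adjusted p = 9.52e-07) in the time course. It was smaller in the repeat set, 0.33 ± 0.04 (adjusted p = 0.000995) and 0.30 ± 0.04 (adjusted p = 0.00166). Lamb2, the beta chain that replaces Lamb1 in mature basement membranes, rose by 0.25, 0.34, 0.57 and 0.49. Lamb3, the beta chain of epidermal laminin, rose by 0.69, 0.88, 0.73 and 0.48. The Lamb2 call in the Mettl14 time course ended without replicate 1 of scramble (adjusted p = 0.072) and under the scaling to long-lived transcripts (0.106). The Lamb3 call in the Mettl3 repeat set ended without scramble replicate 1 (0.0821), scramble replicate 2 (0.113) or knockdown replicate 1 (0.0882), and with no filter (0.0709). Without the repeat-set scramble arrays described as 4 h, Lamb3 did not pass with Mettl14 (0.0653) or Mettl3 (0.158).

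The gamma chain gene shared by most trimers, Lamc1, changed little. It read 11.37 and 11.37 in scramble at 0 h of the time course, 11.26 and 11.22 in the Mettl14 and 11.27 and 11.16 in the Mettl3 knockdown. Arrays of the repeat set read 11.04 and 11.01 against 11.03 and 10.99, and 10.90 and 10.91 against 10.96 and 10.99. The time course knockdowns lay slightly below scramble, and the repeat set showed no drop. The differences were -0.13 ± 0.05 (adjusted p = 0.0525), -0.15 ± 0.05 (adjusted p = 0.0292), -0.01 ± 0.04 and 0.07 ± 0.04. The call in the Mettl3 time course ended without scramble replicate 1 (adjusted p = 0.0966), scramble replicate 2 (0.103) or knockdown replicate 2 (0.211), with no filter (0.0646) and in a fit of only the 6 arrays at 0 h (0.141). The Mettl14 difference there passed under the scaling to long-lived transcripts (-0.21, adjusted p = 0.0166). Of the embryonic trimer, then, the alpha chain gene fell, the beta chain gene rose, and the gamma chain gene changed by at most 0.15 on the log2 scale. Lamc3 was not called at 0 h.

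**Figure D2:**
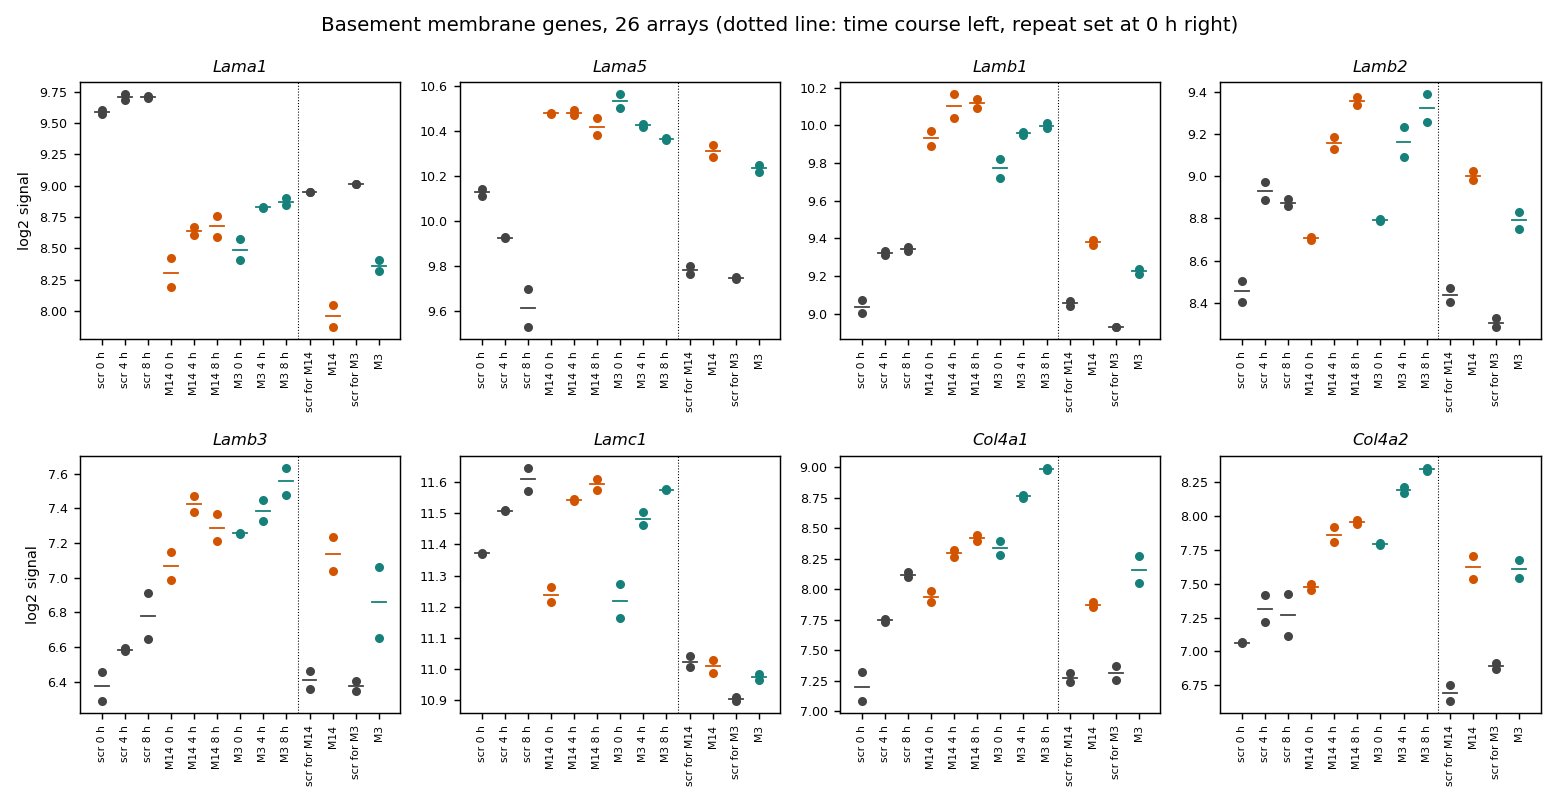
Log2 signal (y axis) of 8 basement membrane genes in each of the 26 arrays, by group (x axis; scr is scramble, M14 and M3 the Mettl14 and Mettl3 knockdowns), with a bar at the mean of the 2 arrays and the repeat set right of the dotted line. Lama1 is highest in the scramble groups of the time course (9.57 to 9.73) and lowest in the Mettl14 knockdown of the repeat set (7.87 and 8.05), and Lama5 in scramble goes down from 10.11 and 10.14 at 0 h to 9.70 and 9.53 at 8 h.

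Type IV collagen is built from 6 genes in 3 head-to-head pairs, and the pair whose windows are printed above encodes the chains found in all basement membranes. Col4a1 read 7.09 and 7.32 in scramble at 0 h of the time course, 7.89 and 7.99 in the Mettl14 knockdown and 8.39 and 8.28 in the Mettl3 knockdown. Repeat-set values were 7.24 and 7.31 against 7.85 and 7.90, and 7.37 and 7.25 against 8.05 and 8.27. Knockdown and control arrays were separate in every comparison, and in the time course the Mettl3 arrays were above the Mettl14 arrays. The rises were 0.74 ± 0.07 (adjusted p = 5.53e-06), 1.13 ± 0.07 (adjusted p = 1.44e-07, 219% of scramble), 0.60 ± 0.08 (adjusted p = 0.00157) and 0.85 ± 0.08 (adjusted p = 0.000417).

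Its partner Col4a2 read 7.06 and 7.07 in scramble, 7.46 and 7.497 after Mettl14 and 7.78 and 7.80 after Mettl3 knockdown. The repeat set read 6.75 and 6.63 against 7.71 and 7.53, and 6.87 and 6.92 against 7.68 and 7.54. Again no arrays overlapped. The rises were 0.41 ± 0.09 (adjusted p = 0.00251), 0.73 ± 0.09 (adjusted p = 3.76e-05), 0.93 ± 0.08 (adjusted p = 0.000227) and 0.72 ± 0.08 (adjusted p = 0.00073). Both genes of the pair were therefore called in all 4 comparisons. The other type IV genes, Col4a3, Col4a4, Col4a5 and Col4a6, whose chains serve kidney, lung and smooth muscle among other tissues, were called in none of the 4. Their differences ran from -0.09 for Col4a6 in the repeat set to 0.32 ± 0.17 for Col4a4 in the time course, both with Mettl14 knocked down.

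Among the fibrillar collagens, the type I and type III genes that fibroblasts make in bulk did not move together. Col1a1, the main chain of type I collagen, read 7.35 and 7.28 in scramble at 0 h, 7.82 and 7.95 after Mettl14 and 7.65 and 7.76 after Mettl3 knockdown. Its values in the repeat set were 8.03 and 8.03 against 8.05 and 8.09 for Mettl14, and 7.63 and 7.80 against 8.18 and 8.23 for Mettl3. The Mettl14 knockdown of the repeat set was the exception, just above a scramble control that was itself high. Col1a1 rose by 0.58 ± 0.09 (adjusted p = 0.000334), 0.40 ± 0.09 (adjusted p = 0.00475) and, with Mettl3 in the repeat set, 0.49 ± 0.06 (adjusted p = 0.00129). With Mettl14 in the repeat set it differed by 0.05 ± 0.06 (adjusted p = 0.601).

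Col1a2, whose chain joins those of Col1a1 in the type I trimer, read 6.85 and 6.59 in scramble, 6.67 and 6.87 in the Mettl14 and 6.95 and 6.75 in the Mettl3 knockdown. Signals of the repeat set were 7.09 and 6.99 against 7.09 and 6.80, and 6.77 and 6.89 against 7.11 and 7.06. The groups overlapped in all comparisons but the last. Its differences of 0.05 ± 0.11, 0.13 ± 0.11, -0.10 ± 0.10 and 0.25 ± 0.10 did not pass (adjusted p = 0.755, 0.365, 0.5 and 0.0899). A second, dimmer probe set of Col1a2 (mean 4.24) differed by -0.17, -0.28, -0.10 and 0.04, with the opposite sign in the time course. Col3a1, the type III chain, read 6.41 and 6.60 in scramble, 6.67 and 6.77 with Mettl14 and 6.44 and 6.32 with Mettl3 knocked down. In the repeat set its arrays ran from 6.23 to 6.48. The Mettl14 arrays of the time course lay above scramble, and the groups overlapped elsewhere. It did not pass in any of the 4 comparisons, with differences of 0.22 ± 0.12, -0.12 ± 0.12, 0.05 ± 0.08 and 0.10 ± 0.08.

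Of the remaining fibrillar genes, 3 were called. Col5a1, a regulatory chain of fibre formation, rose by 0.71 ± 0.12, 0.65 ± 0.12 and 0.69 ± 0.09 and differed by 0.27 ± 0.09 (adjusted p = 0.0546) with Mettl3 in the repeat set. A second, dimmer probe set of Col5a1 differed by 0.06, 0.17, 0.14 and 0.01, so the probe sets of this gene disagree. Col2a1, the cartilage collagen, rose by 0.34 and 0.52 in the time course and differed by -0.09 and 0.27 in the repeat set. Its call with Mettl14 ended without either scramble array at 0 h (adjusted p = 0.171 and 0.0737) or knockdown replicate 2 (0.197), and with no filter on dim genes (0.0685), after quantile normalization (0.116) and under the long-lived scaling (0.112). Col27a1 rose by 0.40, 0.32 and, with Mettl3 in the repeat set, 0.31, and differed by 0.14 with Mettl14 there. Its time course calls ended without scramble replicate 1 (adjusted p = 0.0507 for Mettl14 and 0.167 for Mettl3), and that for Mettl3 ended without knockdown replicate 1 (0.134), after quantile normalization (0.073) and in a fit of only the 6 arrays at 0 h (0.0635) too. Col5a2, Col5a3, Col11a1, Col11a2 and Col24a1 were not called at 0 h.

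Fibroblast transcripts other than collagens were read beside these genes, since the feeder layer is a source of matrix RNA. Of 10 defining fibroblast markers, Dcn, Lum, Postn, Dpt and Fap were too dim to be tested, and Prrx1, Twist2, Thy1, Pdgfrb and Mfap5 were tested. Of these 5, limma called 0 with Mettl14 in the time course, where Prrx1 (0.40) and Pdgfrb (-0.16) had unadjusted p of 0.0208 and 0.0218, and with Mettl3 Pdgfrb fell by 0.24 ± 0.06. In the repeat set Pdgfrb (0.20 ± 0.05) and Mfap5 (0.40 ± 0.06) rose with Mettl14, and Prrx1 (0.32 ± 0.10) and Mfap5 (0.20 ± 0.06) with Mettl3. The share called of the 5 was 0%, 20%, 40% and 40%, against 39.5%, 37.8%, 36.2% and 35.3% of all genes. Thy1 differed by at most 0.10 in the 4 comparisons.

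The summed linear signal of the 10 defining markers was 657 to 712 in scramble at 0 h of the time course, 731 to 732 in the Mettl14 and 666 to 689 in the Mettl3 knockdown. The repeat set had 849 to 865 against 916 to 951 for Mettl14, and 785 to 802 against 842 to 848 for Mettl3. Only with Mettl3 in the time course did the knockdown lie within the range of its control. Decorin (Dcn), an abundant fibroblast proteoglycan, was below the filter and yet separate between groups: 4.81 and 5.04 in scramble against 5.40 and 5.27 with Mettl14 and 5.39 and 5.39 with Mettl3, and in the repeat set 4.54 and 4.41 against 5.62 and 5.41, and 4.75 and 4.55 against 5.18 and 5.70. Lumican (Lum) read 3.70 to 4.43 in the 14 arrays at 0 h and overlapped between knockdown and control in all comparisons but the Mettl14 one of the repeat set, where it was lower. At 8 h of the time course the sum of the defining markers was higher: 915 to 1008 in scramble, 930 to 952 with Mettl14 and 905 to 914 with Mettl3. Of the 5 tested, 4, 2 and 3 rose from 0 h to 8 h in that order, with medians of 0.65, 0.31 and 0.47. Over all genes 39.2%, 36.8% and 36.9% rose.

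A further list of 29 genes shared by fibroblasts and other mesenchymal cells moved more. Of the 26 tested, 15, 15, 11 and 13 rose and 4, 3, 3 and 4 fell, with median changes of 0.37, 0.36, 0.08 and 0.28. That is 73.1%, 69.2%, 53.8% and 65.4% called, against 39.5%, 37.8%, 36.2% and 35.3% of all genes. The lowest change in the list was -0.63, -0.52, -0.53 and -0.43, and the genes named next are among those that rose. Thbs1, a secreted adhesion protein, rose by 3.48, 3.11, 0.94 and 0.96, and Fstl1 by 1.41, 1.25, 0.58 and 0.79. Tagln, an actin-binding protein of contractile cells, rose by 2.22, 2.47, 0.83 and 0.63. The summed linear signal of the list was 14836 to 14919 in scramble at 0 h, 22601 to 22837 with Mettl14 and 21360 to 21450 with Mettl3. The repeat set had 20427 to 20708 against 23881 to 24076, and 18158 to 18216 against 21160 to 21367. The part of feeder fibroblast RNA in the changes of the collagen and laminin genes was not tested.

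**Figure D3:**
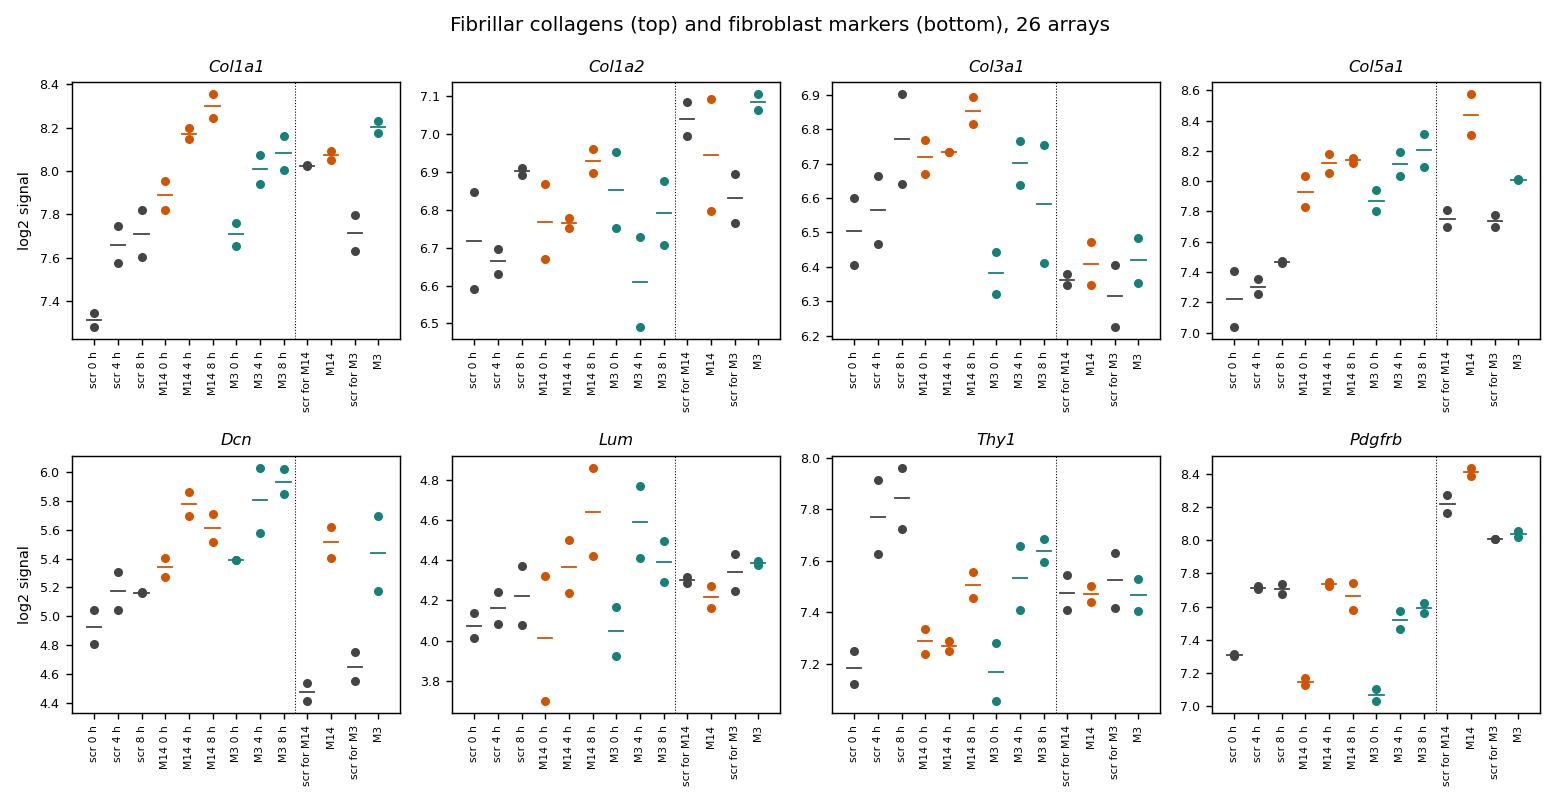
Log2 signal (y axis) of 4 fibrillar collagen genes (top row) and 4 defining fibroblast markers (bottom row) in each of the 26 arrays by group (x axis, same labels and layout as for the basement membrane genes). Col1a1 and Col5a1 are above scramble in the time course knockdowns at 0 h, Col1a2 and Col3a1 overlap with it or lie close, and Thy1 reads 7.05 to 7.34 in the 6 arrays at 0 h left of the dotted line.

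Among the other collagens Col12a1 and Col7a1 were called in all 4 comparisons, while most of the 21 tested were called in none. Col12a1, which decorates fibrils of type I collagen, rose in all 4 comparisons, by 0.66 ± 0.12, 0.72 ± 0.12, 0.30 ± 0.04 and 0.48 ± 0.04 (adjusted p = 0.000689, 0.000393, 0.00224 and 0.000349). The last call ended with both scramble controls as 1 group (0.0613). Col7a1, the anchoring fibril collagen under epidermis, rose by 0.54 ± 0.08, 0.52 ± 0.08, 0.23 ± 0.05 and 0.23 ± 0.05. Its calls in the repeat set ended when single arrays were left out: scramble replicate 2 (adjusted p = 0.0614) or knockdown replicate 1 (0.0636) for Mettl14, and scramble replicate 2 (0.0541) or knockdown replicate 1 (0.0604) for Mettl3. Without the arrays described as 4 h neither passed (0.101 and 0.0872). Col23a1, a membrane-spanning collagen, rose by 0.46 with Mettl14 in the time course and by 0.33 with Mettl3 in the repeat set. The first ended without scramble replicate 2 (0.149) or either knockdown array (0.0898 and 0.0855), with no filter (0.0503) and under both other scalings (0.0655 and 0.0507). The second ended without any of 5 arrays (up to 0.165), with no filter (0.086), under the long-lived scaling (0.0514), in 1 fit over all arrays (0.0868), with both scramble controls as 1 group (0.102) and without the arrays described as 4 h (0.175). Col6a5 rose with Mettl14 in the time course (0.45 ± 0.11), a call lost without scramble replicate 2 (0.0669). In the repeat set with Mettl3, Col20a1 rose by 0.20 and Col6a4 fell by 0.47. The Col20a1 call ended without scramble replicate 1 (0.0816) or either knockdown array (0.0645 and 0.0578), and the Col6a4 call without replicate 2 of scramble (0.101) or of the knockdown (0.0992). The Col20a1 call was also lost with limma's trend and robust setting (0.141), in 1 fit over all arrays (0.331) and without the arrays described as 4 h (0.0537), and the Col6a4 call with no filter (0.055) and without those arrays (0.0842).

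Col18a1, a basement membrane zone collagen whose end fragment is endostatin, fell in the repeat set and was not called in the time course. It read 9.56 and 9.67 in scramble at 0 h of the time course, 9.65 and 9.70 with Mettl14 and 9.55 and 9.53 with Mettl3. The repeat set gave 9.01 and 8.98 against 8.73 and 8.79, and 9.09 and 9.16 against 8.92 and 8.99. The time course arrays lay close together, and the repeat set knockdowns lay below their controls. The differences were 0.06 ± 0.05, -0.07 ± 0.05, -0.23 ± 0.05 (adjusted p = 0.00939) and -0.17 ± 0.05 (adjusted p = 0.033). The Mettl14 call ended without replicate 1 of scramble (0.0507) or of the knockdown (0.0554). The Mettl3 call ended without any of 6 of the 8 arrays (0.0506 to 0.156), all but those of the Mettl14 knockdown, with no filter (0.083) and with both scramble controls as 1 group (0.2). Without the arrays described as 4 h neither passed (0.0597 and 0.206).

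Knockdowns of the separate sets share no arrays. For Mettl14, all 9 genes that rose in the repeat set were among the 16 that rose in the time course, 56.2% of the latter. For Mettl3, 11 genes rose in both, 78.6% of the 14 of the time course and 84.6% of the 13 of the repeat set. Within the repeat set, where each knockdown had its own scramble arrays, 8 genes rose with both, 88.9% of the 9 with Mettl14 and 61.5% of the 13 with Mettl3, and Lama1 and Col18a1 fell with both. The 8 were Col4a1, Col4a2, Lama5, Lamb1, Lamb2, Lamb3, Col7a1 and Col12a1. Such overlaps were not counted over all genes, so these shares have no background beside them and are not a trait of collagen and laminin genes.

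Genes that process collagen, or bind it and laminin in the basement membrane, moved at the same time. Of 38 partner genes tested, 20, 19, 17 and 17 rose and 6, 9, 8 and 8 fell, and the median change was 0.22, 0.20, 0.14 and 0.11. That is 68.4%, 73.7%, 65.8% and 65.8% called, against 39.5%, 37.8%, 36.2% and 35.3% of all genes. Serpinh1, the collagen chaperone of the endoplasmic reticulum, rose by 0.89, 1.15, 1.07 and 1.01. Bmp1, the protease that trims procollagen, rose by 1.29, 1.44, 1.79 and 1.01. Ddr1, a receptor kinase for collagen, rose by 1.41, 1.45, 0.48 and 0.60, and Itga3, an integrin chain for laminin, by 0.87, 1.04, 0.59 and 0.68. Plod2, which hydroxylates collagen lysines, rose by 1.03 and 1.00 in the time course and differed by 0.04 and 0.12 in the repeat set. The gelatinases Mmp2 and Mmp9, which cut type IV collagen, rose by 1.48, 1.41, 0.26 and 0.55, and by 0.69, 0.73, 1.39 and 0.53. Agrn, a laminin-binding proteoglycan, rose by 0.62, 0.57, 0.76 and 0.76, and Sparc, a collagen-binding glycoprotein, by 0.64, 0.50, 0.88 and 0.64. Adamts14, which trims procollagen at its other end, fell (-1.36, -1.24, -0.75 and -0.88). Nid1, which ties laminin to type IV collagen and was picked after its values were seen, fell (-1.08, -0.77, -0.34 and -0.77). Of the partner list, 6 genes stand in the further fibroblast list too.

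Primitive and parietal endoderm cells, which make large amounts of laminin and type IV collagen, can arise in embryonic stem cell cultures, and their markers were read too. Of 14 tested, 3, 4, 3 and 4 rose and 3, 3, 4 and 4 fell. That is 42.9%, 50%, 50% and 57.1% called, against 39.5%, 37.8%, 36.2% and 35.3% of all genes. Cubn fell (-2.18, -2.13, -0.89 and -1.17), and so did Srgn (-2.52, -1.90, -1.21 and -1.70). Sparc, given above among the partner genes, is on this list too and rose in all 4 comparisons. The highest change among the 14 was 0.64, 0.50, 0.88 and 0.84. Gata6 was too dim to be tested. Dab2 rose by 0.19 with Mettl3 in the time course and by 0.73 and 0.70 in the repeat set. The summed linear signal of the 15 markers was 3662 to 3727 in scramble at 0 h, 3446 to 3644 with Mettl14 and 3608 to 3751 with Mettl3. For the repeat set the sums were 2258 to 2306 against 2789 to 2824, and 2587 to 2614 against 2842 to 2920. The mean log2 level of the 15 markers went the other way there, from 6.88 to 6.82 and from 7.04 to 6.89. Over the 14 tested the median change was -0.03, -0.02, -0.11 and -0.19 in the 4 comparisons. Trophoblast, an epithelium that lays down basement membrane, was read from 9 markers. Of 8 tested, 6, 5, 6 and 5 rose and 1 fell in each comparison. That is 87.5%, 75%, 87.5% and 75% called, against 39.5%, 37.8%, 36.2% and 35.3% of all genes. The lowest change among the 8 was -1.33, -1.20, -0.28 and -0.63. Krt8 and Krt18, the simple epithelial keratins, and Cdx2, a trophoblast transcription factor, were picked after their values were seen. None of them is a marker that fell. Krt8 rose by 2.34, 2.51, 1.36 and 1.12, and Krt18 by 2.24, 2.31, 1.54 and 1.17. Cdx2 rose by 0.41, 1.59 and 0.88 and differed by 0.28 with Mettl3 in the time course. The part of endoderm or trophoblast cells in the laminin and collagen changes was not tested.

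By 8 h most collagen and laminin genes read higher than at 0 h in all treatments, as did most genes on the arrays. The change was above 0 in 47, 40 and 30 of the 48 genes in scramble, the Mettl14 and the Mettl3 knockdown. In scramble 18 genes rose and 1 fell, 39.6% of 48 against 60.8% of all genes (39.2% higher and 21.6% lower). With Mettl14 knocked down limma called 13 higher and 0 lower, with 0 more lower at an unadjusted p under 0.05, which is 27.1% against 56.2% (36.8% higher and 19.4% lower). With Mettl3 knocked down 12 rose and 1 fell, 27.1% against 56.1% (36.9% higher and 19.2% lower). By class, in the same order, 7, 7 and 10 of the 16 basement membrane genes, 3, 2 and 2 of the 11 fibrillar and 9, 4 and 1 of the 21 other collagens were called. Over all genes the median change was 0.15, 0.12 and 0.11, so changes are to be read against that shift. Medians over the 48 genes were 0.25, 0.16 and 0.07. Most of these calls depend on the scaling of the arrays, and 9 of the called changes then had the opposite sign. With the arrays scaled to equal medians of the long-lived list, 1 rose and 1 fell in scramble, 1 rose and 10 fell with Mettl14, and 4 rose and 14 fell with Mettl3, and the share of higher calls among all genes went from 64.5%, 65.5% and 65.9% to 16.8%, 14.9% and 22.8%.

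Col4a1 had the largest rise from 0 h to 8 h in scramble. It read 7.09 and 7.32 at 0 h, 7.73 and 7.76 at 4 h and 8.10 and 8.14 at 8 h. With Mettl14 knocked down it went from 7.89 and 7.99 to 8.44 and 8.39, and with Mettl3 from 8.39 and 8.28 to 8.996 and 8.98. The time points did not overlap in any treatment. The rises were 0.92 ± 0.07 (adjusted p = 5.3e-07), 0.48 ± 0.07 (adjusted p = 0.000112) and 0.65 ± 0.07 (adjusted p = 1.07e-05). Col4a2 rose by 0.48 ± 0.09 and 0.55 ± 0.09 in the knockdowns and differed by 0.21 ± 0.09 in scramble (adjusted p = 0.0599). Lamb2 rose by 0.42, 0.65 and 0.53, and Lamc1 by 0.24, 0.35 and 0.36. Col18a1 rose by 0.35, 0.36 and 0.44, from 9.56 and 9.67 to 9.97 and 9.96 in scramble. Under the scaling to long-lived transcripts the Lamc1 change in scramble was -0.05, and these calls were lost: Lamb2 in scramble (adjusted p = 0.189), Col18a1 in scramble (0.402) and with Mettl14 (0.559), Col4a1 and Col4a2 with Mettl14 (0.0842 and 0.157), and Lamc1 with either knockdown (0.616 and 0.178).

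Lama5 went the other way. In scramble it read 10.11 and 10.14 at 0 h, 9.92 and 9.93 at 4 h and 9.70 and 9.53 at 8 h, each time point below the one before. With Mettl14 knocked down it read 10.48 and 10.48 at 0 h and 10.46 and 10.38 at 8 h, and with Mettl3 10.57 and 10.50 and then 10.36 and 10.37. It fell by 0.51 ± 0.06 in scramble (adjusted p = 1.05e-05) and by 0.17 ± 0.06 with Mettl3 (adjusted p = 0.0229), and differed by -0.06 ± 0.06 with Mettl14 (adjusted p = 0.387). The drop was smaller in the knockdowns, by 0.45 ± 0.08 with Mettl14 (adjusted p = 0.00813) and by 0.34 ± 0.08 with Mettl3 (adjusted p = 0.0373). Such differences between a knockdown's change and that of scramble were called for 2 of the 48 genes with Mettl14, 1 in each direction, against 4.99% of all genes (3.58% higher and 1.41% lower). With Mettl3 1 was called, higher, against 3.47% (2.46% higher and 1.01% lower). The second gene with Mettl14 was Col4a1, whose rise was smaller than in scramble (-0.44 ± 0.10, adjusted p = 0.0289). After a further quantile normalization the higher share of these calls over all genes went from 71.8% to 57.6% with Mettl14 and from 71% to 59.9% with Mettl3. The Col4a1 difference ended without scramble 0 h replicate 1 (adjusted p = 0.0893), scramble 8 h replicate 2 (0.0946), Mettl14 0 h replicate 2 (0.104) or Mettl14 8 h replicate 2 (0.0832), with no filter (0.0704) and with array weights (0.062). The Lama5 difference with Mettl3 ended without any of 13 of the 18 arrays, up to 0.118 without scramble 8 h replicate 2, with no filter (0.0911), and under both other scalings (0.113 and 0.0587). The Lama5 fall with Mettl3 ended without Mettl3 0 h replicate 1 (0.127), 8 h replicate 1 (0.0847) or 8 h replicate 2 (0.0681). Under the scaling to long-lived transcripts Lama5 fell from 0 h to 8 h with Mettl14 too (-0.37, adjusted p = 0.000418), so that result depends on the scaling. The Lama5 difference with Mettl14 held with each array left out.

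**Figure D4:**
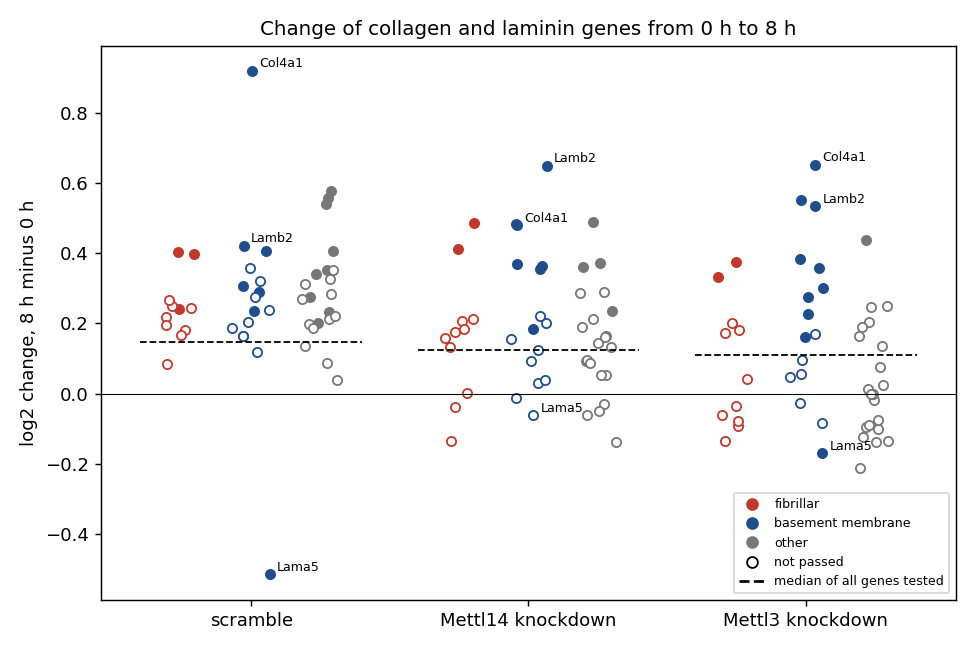
Log2 change from 0 h to 8 h (y axis) of the 48 tested genes in scramble and the 2 knockdowns of the time course (x axis), filled for an adjusted p under 0.05, coloured by class, with a dashed line at the median of all genes tested. Most points lie above 0 and around the dashed line (0.15, 0.12 and 0.11), Col4a1 is at 0.92 in scramble, and Lama5 is at -0.51 in scramble and nearer to 0 in the knockdowns.

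At 8 h Lama1 was again lower and Lama5, Lamb1, Col4a1 and Col4a2 again higher in both knockdowns than in scramble. Of the 48 genes 16 were called with Mettl14, 14 higher and 2 lower, 33.3% against 43.6% of all genes (23.8% higher and 19.8% lower). With Mettl3 16 were called, 13 higher and 3 lower, 33.3% against 42.8% (23.8% higher and 19% lower). Under the scaling to long-lived transcripts the higher share of all calls with Mettl14 went from 54.6% to 35.1%, with 12 of the 48 higher and 4 lower. The Lama1 difference was -1.03 ± 0.08 and -0.83 ± 0.08, and Lama5 was higher by 0.81 ± 0.06 and 0.75 ± 0.06. Col4a2 was higher by 0.69 ± 0.09 and 1.08 ± 0.09, and Lamb1 by 0.77 ± 0.06 and 0.65 ± 0.06. Col4a1 was higher by 0.30 ± 0.07 with Mettl14 (adjusted p = 0.00451) and 0.87 ± 0.07 with Mettl3. Its Mettl14 call at 8 h was lost under both other scalings (adjusted p = 0.0877 with quantile normalization and 0.0542 with long-lived transcripts). Col1a1 was higher by 0.59 ± 0.09 and 0.37 ± 0.09, the latter lost without scramble 8 h replicate 1 (0.0692) or Mettl3 8 h replicate 2 (0.0606), and after quantile normalization (0.0851). Lamc1, Col1a2, Col3a1 and Col18a1 did not pass in either, with differences of -0.02 and -0.03, 0.03 and -0.11, 0.08 and -0.19, and 0.07 and 0.01. Col13a1, a membrane-spanning collagen, fell (-0.38 and -0.46), and single arrays ended both calls (up to 0.293 without Mettl14 8 h replicate 2, and 0.074 without Mettl3 8 h replicate 1).

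The size of the knockdown effect at 0 h differed between the sets for some genes. With Mettl14, 9 of the 48 effects differed, 7 higher and 2 lower in the time course, 18.8% against 16.5% of all genes (7.86% higher and 8.64% lower). With Mettl3 4 did, 2 in each direction, 8.33% against 9.81% (6.15% higher and 3.66% lower). Under the scaling to long-lived transcripts the higher share of all such calls with Mettl14 went from 47.6% to 18%, with 4 of the 48 higher and 6 lower. The Lamb1 rise was larger in the time course by 0.57 ± 0.07 with Mettl14 (adjusted p = 2.49e-05) and 0.44 ± 0.07 with Mettl3 (adjusted p = 0.000524), and that of Lama3 by 0.57 ± 0.11 and 0.47 ± 0.11. With Mettl14 the Col4a2 rise was smaller in the time course by -0.52 ± 0.12 (adjusted p = 0.00821), and the Col1a1 rise larger by 0.53 ± 0.12 (adjusted p = 0.00601). Without the scramble arrays described as 4 h, the Col4a2 difference (adjusted p = 0.0558) and the Lama3 difference with Mettl3 (0.0512) did not pass. Scramble levels differed between the sets: the Col1a1 controls read 7.35 and 7.28 in the time course and 8.03 and 8.03 for Mettl14 in the repeat set, and the summed signal of the defining fibroblast markers was higher in the latter (849 to 865 against 657 to 712). The part of that difference was not tested, and the set cannot be told apart from whatever else differed between the preparations.

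Over the 13 group means, the spread was widest for Col4a1 (1.78 on the log2 scale, from scramble at 0 h of the time course to the Mettl3 knockdown at 8 h), Lama1 (1.75) and Col4a2 (1.65), and narrowest for Col4a6 (0.31) and Col6a1 (0.31).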

How the data were processed

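Poly(A)-enriched RNA of 26 samples was hybridised to Affymetrix mouse gene arrays. The deposited values are log2 signals of 41345 probe sets, made by the authors with the tools RMA and oligo, as the submitters' processing notes name them (versions not given in the sources used here). Of the probe sets, 23521 had 1 gene symbol in the platform annotation, 1814 had several and 16010 were not listed. Each gene was read from its brightest single-symbol probe set by the mean over all arrays, which decided between probe sets for 1082 genes. The dimmest genes by mean (a fraction of 0.333, 7393 genes, below 6.00) were left out, and 14787 genes were tested.

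Group differences were fitted with limma 3.58.1 in R 4.3.3, separately for the time course (9 residual degrees of freedom) and the repeat set (4), with eBayes and Benjamini-Hochberg adjustment over all genes tested and a threshold of 0.05. The differences between sets came from 1 fit over all arrays. Every ± is limma's standard error, and every p printed beside a change is limma's, adjusted unless called unadjusted. The fit was checked on simulated data. Arrays were not reprocessed from scanner files, so background correction and scaling are the authors'.

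The members and gene lists were chosen with earlier results of these data known. Full values were given for Col1a1, Col1a2, Col3a1, Col4a1, Col4a2, Lama1, Lamb1, Lamc1, Lama5 and Col18a1. Of the matrix partner, fibroblast, endoderm and pluripotency lists, up to 4 genes of smallest adjusted p per comparison and the defining markers were named, and Mettl14, Mettl3, Pou5f1, Actb and Gapdh were always read. Actb rose by 0.15, 0.16 and 0.15 in the first 3 knockdown comparisons at 0 h, and Gapdh was called in none of the 4. Summed list signals are sums of 2 to the power of the log2 value. Alternatives covered the filter, the probe set rule, the limma variant, array weights, both scalings, the replicate block, the fit's arrays, single arrays left out, and both repeat-set scramble controls as 1 group.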

Additional observations from a re-analysis of the deposited data

Results flagged for a closer look

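Effects that differed between groups under a test of the difference are given here. The change from 0 h to 8 h differed from that of scramble for Col4a1 (-0.44) and Lama5 (0.45) with Mettl14 knocked down, and for Lama5 (0.34) with Mettl3 knocked down.

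The knockdown effect at 0 h differed between the time course and the repeat set for 9 genes with Mettl14. In the time course it was higher for Col18a1 (0.30), Col1a1 (0.53), Col6a5 (0.57), Col7a1 (0.31), Lama3 (0.57), Lama4 (0.58) and Lamb1 (0.57), and lower for Col4a2 (-0.52) and Lamb2 (-0.32). With Mettl3 it was higher for Lama3 (0.47) and Lamb1 (0.44) and lower for Lama1 (-0.44) and Lamc1 (-0.22). Of these, 6 of the 9 and 2 of the 4 held with each array left out. Col6a5 was lost without any of 4 arrays (adjusted p up to 0.104, without replicate 1 of the repeat-set Mettl14 knockdown), Col7a1 without any of 6 (up to 0.182, without Mettl14 0 h replicate 2) and Lamb2 without any of 3 (up to 0.0631, without scramble 0 h replicate 2). With Mettl3, Lama1 was lost without any of 4 (up to 0.0778, without Mettl3 0 h replicate 1) and Lamc1 without any of 7 (up to 0.112, without Mettl3 0 h replicate 2). Without the scramble arrays described as 4 h, Col4a2 (adjusted p = 0.0558), Col6a5 (0.0977) and Col7a1 (0.0881) did not pass with Mettl14, nor Lama1 (0.0665), Lama3 (0.0512) and Lamc1 (0.0868) with Mettl3. Under the long-lived scaling Col18a1 (0.13), Col6a5 (0.0526) and Col7a1 (0.27) were lost with Mettl14. Lama1 (-0.43, 0.0246), Lama5 (-0.31, 0.0117) and Lamc1 (-0.26, 0.02) were then gained among the genes named. Col7a1 was also lost with no filter (0.0716), trend and robust (0.1) and quantile normalization (0.0566), and Lamc1 with Mettl3 with no filter (0.064).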

How the results depend on the processing

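Results under another processing were compared for the called genes and for the genes given full values, whether called or not. Apart from single arrays left out, 1748 such comparisons were unchanged, 109 lost the call, 11 gained it and 9 reversed. Unchanged means the same side of the threshold, with the direction read only where a change was called. All 9 reversals came from the scaling to an equal median of long-lived transcripts in the change from 0 h to 8 h: Col15a1 (-0.050), Col27a1 (-0.041), Col6a2 (-0.0089), Col7a1 (-0.082) and Lamc1 (-0.047) in scramble, Col17a1 (-0.079) and Lamb1 (-0.13) with Mettl14, and Lama2 (-0.091) and Lamb1 (-0.023) with Mettl3. That scaling shifted the median of all genes there by -0.28, -0.31 and -0.25, and left 2 genes called in scramble. For the change with Mettl14 against that in scramble, 1 gene was called with no filter and 1 with array weights. With Mettl3, 0 were called with no filter, 0 after quantile normalization and 0 after the long-lived scaling. The cause was not tested. Without the repeat-set scramble arrays described as 4 h, an alternative added after the data were seen that leaves fewer samples, 9 genes were called with Mettl3 in the repeat set (Col18a1, Col20a1, Col23a1, Col6a4, Col7a1, Lama4 and Lamb3 were lost) and 8 with Mettl14 (Col18a1, Col7a1 and Lamb3 were lost). For the difference between sets 1 was called with Mettl3 (Lama1, Lama3 and Lamc1 were lost) and 6 with Mettl14 (Col4a2, Col6a5 and Col7a1 were lost).

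With 1 array left out at a time, 3565 of 3720 such comparisons were unchanged, 135 lost a call and 20 gained one. Genes that stayed uncalled count as unchanged. Of the calls themselves, 14 of 16 and 10 of 16 at 8 h held throughout. For the change over time 12 of 19, 10 of 13 and 8 of 13 did, and for its difference from scramble 1 of 2 and 0 of 1. The count of genes called ranged, in the order of the report's 4 comparisons at 0 h, from 15 to 18, 15 to 18, 10 to 12 and 10 to 17. It ranged from 14 to 16 and 13 to 19 at 8 h, from 13 to 23, 11 to 16 and 9 to 14 for the change over time, from 1 to 2 and 0 to 2 for the difference of that change from scramble, and from 7 to 12 and 2 to 5 for the difference between sets. Same-numbered arrays deviated with correlations from -0.44 to 0.16 and do not pair. With the replicate block, 16 genes rose and 1 fell with Mettl14 in the time course and 21 rose and 1 fell in scramble over time, where Col3a1 (adjusted p = 0.0396) and Col4a2 (0.0492) were gained among the genes named. The crossed block called 17, 16, 14 and 13 genes against 16, 16, 13 and 13. Groups of 2 arrays limit what can be seen, and dim genes such as Dcn were not tested.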

Other observations

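Other genes of cell adhesion to the basement membrane, picked after their values were seen, changed in the same 4 comparisons at 0 h. Hspg2, which encodes perlecan, rose by 0.44, 0.43, 0.23 and 0.42. Itgb1, the beta chain of the main laminin-binding integrins, rose by 0.58, 0.58, 0.38 and 0.29, and Dag1, which encodes dystroglycan, a further laminin receptor, by 0.33, 0.25, 0.55 and 0.33. Mmp14, a membrane-bound protease that activates Mmp2, rose by 0.51, 0.91, 0.48 and 0.81. Mmp11, a further protease, fell (-0.78, -0.64, -0.80 and -0.78). Among the linkers named here Nid1 fell, while Hspg2 and Agrn rose. From 0 h to 8 h Nid1 rose by 0.32, 0.42 and 0.46 in scramble, with Mettl14 and with Mettl3 knocked down.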
